A study of Mus musculus with 10 samples.

Results

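The small leucine-rich proteoglycans described here are 9 genes, Bgn, Dcn, Aspn, Fmod, Lum, Prelp, Omd, Ogn and Podn. They were taken by symbol from an expression matrix of 23230 features, and all 9 were found. They were chosen by the measured FPKM of these same 10 libraries, so the differences of the members between groups are given below as descriptions, with no test.

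Small leucine-rich proteoglycans are secreted matrix proteins built around a curved stack of leucine-rich repeats. Most of them bind collagen fibrils and set how these assemble, and several hold growth factors of the TGF-β and BMP families in the matrix or engage receptors of the cell surface. Many carry chains of chondroitin, dermatan or keratan sulfate, after which they are called proteoglycans. In the brain they are known mainly from the meninges, from perivascular fibroblasts and from scar tissue, and astrocytes in culture can make some of them.

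RNAseq was done on 10 libraries of mouse cells in 3 groups. All cells came from cortical astrocytes of C57BL/6 mice, taken at postnatal day 5 by the labels, that lacked Ink4a/Arf (p16/p19) and had received human EGFRvIII, a constitutively active receptor, through a retroviral vector. AstroEGFR* were these astrocytes themselves (n = 3, astrocyte batches 1, 2 and 3). PT were glioma propagating cells from the tumours that such astrocytes formed in CD1 Nude mice (n = 4). Batch 1 gave rise to both PT1 and PT4, batch 2 to PT2 and batch 3 to PT3. AstroEGFR* Zfp423 were the 3 batches after a second vector that overexpressed Zfp423, a zinc-finger cofactor of BMP and SMAD signalling (n = 3). Each culture was below passage 10. The culture conditions differed as well, with serum for AstroEGFR* and laminin, EGF and FGF2 without serum for PT, so that the medium and the passage through a tumour cannot be told apart. Donor and host were both mice, so RNA of host cells left in a PT culture cannot be told from that of the transplanted cells.

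The values were FPKM, fragments scaled by transcript length and library size, which may be compared between genes. In AstroEGFR*3 the low FPKM values came in steps 9.71 times as large as in AstroEGFR*2, which goes with far fewer fragments, and PT3 had the most features listed at 0, with 9155, against 6200 in AstroEGFR*2. A value near 0 is therefore given as listed, not as absence. All 10 astrocyte markers, among them Gfap, were at 1 FPKM or more in each AstroEGFR* library, where they summed to between 1387 and 1786 FPKM. They summed to 681 FPKM in the Zfp423 library of batch 1, to 64.8 FPKM in that of batch 2 and to 2832 FPKM in that of batch 3, where Fabp7 alone gave 1906 FPKM. Without Fabp7 they summed to 609, 526 and 1085 FPKM in AstroEGFR* of batches 1 to 3 and to 211, 64.5 and 926 FPKM with Zfp423. Microglia markers were high in the first 2 of these, as given below, which goes against the astrocyte label of those libraries in part.

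In AstroEGFR* the family was strongly expressed, and biglycan (Bgn), which binds collagen and carries chondroitin or dermatan sulfate, was the leading member in each library. The 9 genes together summed to 2897 FPKM in AstroEGFR*1, 466 FPKM in AstroEGFR*2 and 3876 FPKM in AstroEGFR*3. Bgn made up 63.7%, 72.4% and 76.5% of these sums. By the median over the 3 libraries the order was Bgn at 1844 FPKM, Fmod at 183 FPKM, Prelp at 129 FPKM, Ogn at 118 FPKM and Omd at 24.0 FPKM. Dcn followed at 8.03 FPKM, Lum at 4.02 FPKM, Podn at 0.715 FPKM and Aspn at 0.611 FPKM. Bgn stood above Fmod, Ogn above Omd and Lum above Podn in every one of the 3 libraries. The other neighbours in this order changed places between libraries, so Fmod, Prelp and Ogn did not differ from each other beyond their spread, nor did Omd, Dcn and Lum, nor Podn and Aspn.

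The members differed much in how evenly the 3 astrocyte batches expressed them. The highest AstroEGFR* library exceeded the lowest by 2.70-fold for Ogn and by 3.47-fold for Omd. This ratio was 8.79-fold for Bgn, 9.19-fold for Prelp, 25.7-fold for Podn, 31.2-fold for Fmod and 41.8-fold for Lum. It reached 131-fold for Aspn and 488-fold for Dcn. AstroEGFR*2 was the lowest of the 3 libraries in 8 of the 9 genes, the exception being Lum, which was lowest in AstroEGFR*1.

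**Figure D1:**
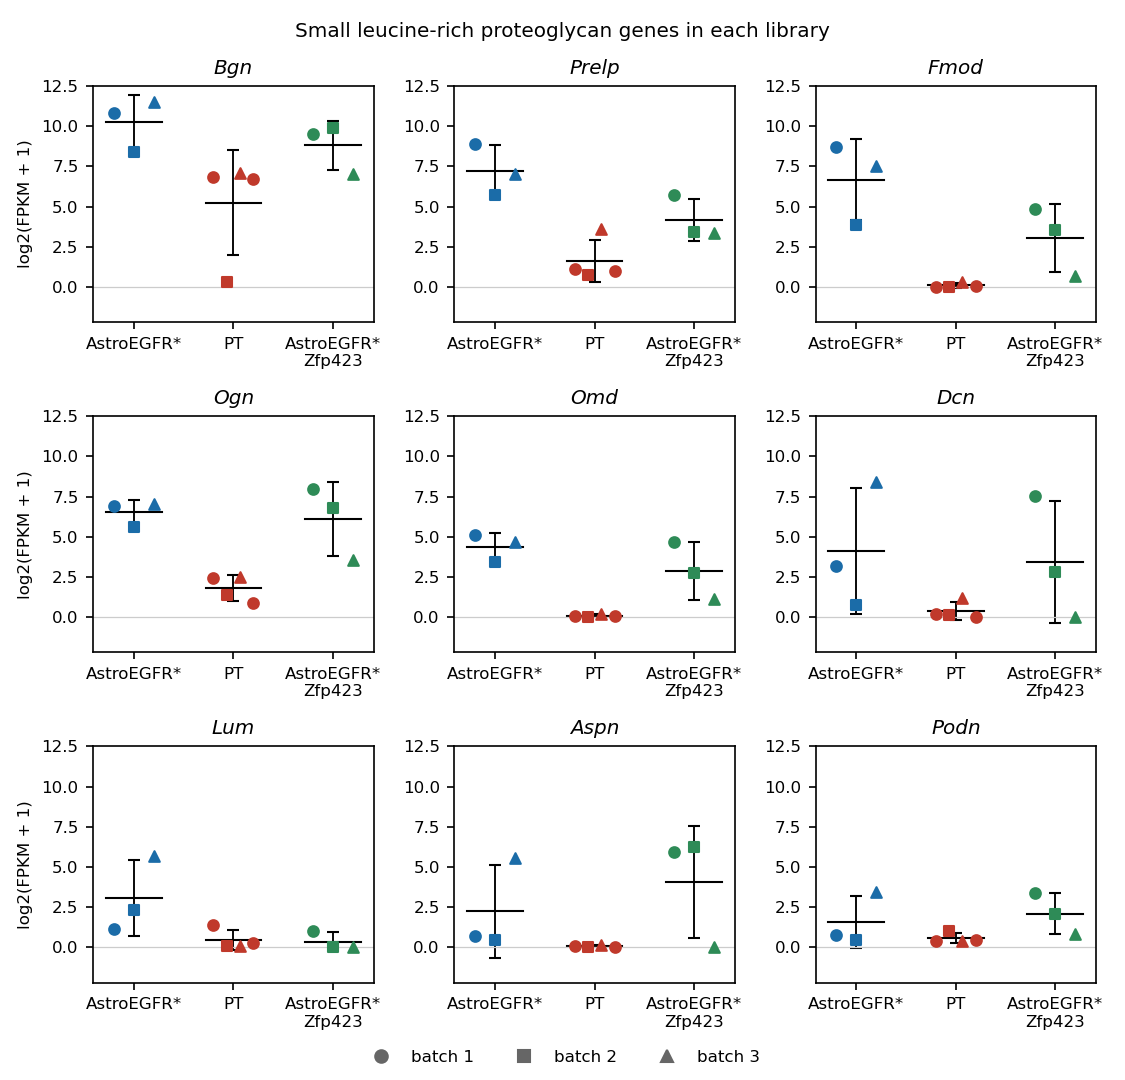
Level of each member in each library, as log2(FPKM + 1) on the vertical axis, with the 3 groups on the horizontal axis. Points are libraries (circle, square and triangle for astrocyte batches 1, 2 and 3), the bar is the group mean and the whiskers 1 SD (n = 3, 4 and 3). Fmod and Omd lie close to 0 in all 4 PT, whereas Bgn keeps between 105 and 134 FPKM in 3 of them.

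Fibromodulin (Fmod), PRELP (Prelp), osteomodulin (Omd) and osteoglycin (Ogn) had similar profiles over the libraries, although with Zfp423 Ogn went another way than the other 3, as given below. Fibromodulin steers the growth of collagen fibrils and binds TGF-β, PRELP anchors collagen to the heparan sulfate of basement membranes, osteomodulin is a keratan sulfate carrier of mineralising tissue, and osteoglycin, also called mimecan, takes part in fibril assembly. Over the 10 libraries the Pearson correlation of log2(FPKM + 1) between any pair of these 4 genes lay between 0.831 and 0.959. These and the following correlations are descriptions over libraries that share astrocyte batches and fall into groups. Fmod and Prelp are direct neighbours on chromosome 1 among protein-coding genes, and Aspn, Omd and Ogn follow each other on chromosome 13, by the order of GRCm38.p6.

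Since these 4 genes form neighbouring pairs, the 250 bases before their transcription starts were read from RefSeq promoters of GRCm38.p6, a later build than the mm9 of the expression values. A promoter was found there for 7 of the 9 members. The window is chr1:133921402-133921651 on the minus strand for Prelp, chr1:134037004-134037253 on the plus strand for Fmod, chr13:49582212-49582461 on the plus strand for Omd and chr13:49607765-49608014 on the plus strand for Ogn. Each is written 5′ to 3′ along its gene, and capitals mark matches, on either strand, to the motifs described next.
Prelp: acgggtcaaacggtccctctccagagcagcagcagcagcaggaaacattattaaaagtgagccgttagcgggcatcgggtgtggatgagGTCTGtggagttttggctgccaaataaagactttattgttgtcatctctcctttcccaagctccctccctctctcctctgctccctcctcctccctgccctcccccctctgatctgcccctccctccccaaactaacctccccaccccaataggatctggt
Fmod: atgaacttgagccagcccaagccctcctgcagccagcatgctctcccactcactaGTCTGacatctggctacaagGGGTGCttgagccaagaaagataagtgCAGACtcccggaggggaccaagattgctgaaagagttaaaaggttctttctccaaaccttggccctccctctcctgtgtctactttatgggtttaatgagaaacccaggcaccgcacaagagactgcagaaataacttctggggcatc
Omd: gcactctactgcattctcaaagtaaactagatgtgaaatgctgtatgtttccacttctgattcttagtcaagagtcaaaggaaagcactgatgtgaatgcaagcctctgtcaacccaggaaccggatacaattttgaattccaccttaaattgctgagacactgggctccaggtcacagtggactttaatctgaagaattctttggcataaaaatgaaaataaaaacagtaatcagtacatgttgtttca
Ogn: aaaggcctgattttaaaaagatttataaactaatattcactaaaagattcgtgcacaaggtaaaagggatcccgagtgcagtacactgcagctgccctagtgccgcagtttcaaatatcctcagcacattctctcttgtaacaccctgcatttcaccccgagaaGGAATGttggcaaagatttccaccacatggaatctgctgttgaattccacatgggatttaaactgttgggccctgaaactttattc
The search covered GCACCC, the half-site of the repeat bound by Zfp423, CAGAC, bound by SMAD proteins, CATTCC, bound by TEAD factors, TGANTCA, bound by AP-1, and the CArG box of the serum response factor. Of the 4 windows, that of Fmod held 1 GCACCC and 2 CAGAC, that of Prelp 1 CAGAC and that of Ogn 1 CATTCC, while that of Omd held none of the 5 motifs. Among the 7 members with a promoter, GCACCC was found in 3 (Bgn, Fmod and Podn) and CAGAC in 2. Over 32851 promoters of the same length, 13.3% held GCACCC, 42.2% CAGAC, 12.6% CATTCC, 6.75% TGANTCA and 1.47% a CArG box. The Prelp and Fmod windows had a GC content of 55.6% and 51.2%, and the Omd and Ogn windows 38.4% and 42.0%, so the 4 promoters shared neither base composition nor any one of these motifs.

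Fmod was at 409.6 FPKM in AstroEGFR*1, 13.1 FPKM in AstroEGFR*2 and 183 FPKM in AstroEGFR*3. In PT it was listed at 0 in PT1, 0.00653 FPKM in PT2, 0.219 FPKM in PT3 and 0.0377 FPKM in PT4. Every PT library lay below every AstroEGFR* library, by a factor of at least 60.1 between the nearest values. The difference was −6.59 ± 1.01 on the log2(FPKM + 1) scale (SE, n = 4 and 3), the widest of the 9 members.

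Prelp was at 481 FPKM in AstroEGFR*1, 52.4 FPKM in AstroEGFR*2 and 129 FPKM in AstroEGFR*3. In PT it was at 1.15 FPKM in PT1, 0.702 FPKM in PT2, 11.1 FPKM in PT3 and 0.999 FPKM in PT4. The groups did not overlap, although PT3 stood above the other PT. The log2 difference was −5.61 ± 0.91 (SE).

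Omd was at 33.2 FPKM in AstroEGFR*1, 9.58 FPKM in AstroEGFR*2 and 24.0 FPKM in AstroEGFR*3, against 0.0558 FPKM in PT1, 0.0110 FPKM in PT2, 0.150 FPKM in PT3 and 0.0356 FPKM in PT4. All 4 PT were near 0, and the lowest astrocyte value was 63.7 times the highest PT value, the widest gap of the 9 members. The log2 difference was −4.29 ± 0.42 (SE), the smallest SE among them.

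Ogn was at 118 FPKM in AstroEGFR*1, 47.9 FPKM in AstroEGFR*2 and 129 FPKM in AstroEGFR*3, and at 4.42 FPKM in PT1, 1.58 FPKM in PT2, 4.57 FPKM in PT3 and 0.832 FPKM in PT4. It remained measurable in each PT, but the groups lay apart by a factor of 10.5. The log2 difference was −4.72 ± 0.52 (SE).

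Bgn behaved differently within PT. It was at 1844 FPKM in AstroEGFR*1, 337 FPKM in AstroEGFR*2 and 2966 FPKM in AstroEGFR*3, and at 113 FPKM in PT1, 134 FPKM in PT3 and 105 FPKM in PT4. PT2 alone stood at 0.245 FPKM. Bgn thus gave 93.6%, 88.3% and 97.7% of the family's summed FPKM in PT1, PT3 and PT4 but 6.55% in PT2, where the sum was 3.74 FPKM. The groups did not overlap, with a log2 difference of −5.02 ± 1.71 (SE), and of −3.38 without PT2. Bgn lies on chromosome X. Haus7, the protein-coding gene before it, was at 13.4 FPKM in PT2 and between 16.6 and 20.1 FPKM in the other 3 PT.

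The remaining members, Dcn, Lum, Aspn and Podn, all had their highest AstroEGFR* value in AstroEGFR*3. Decorin (Dcn), which coats collagen fibrils and binds TGF-β and several receptor tyrosine kinases, was at 8.03 FPKM in AstroEGFR*1, 0.692 FPKM in AstroEGFR*2 and 338 FPKM in AstroEGFR*3. In PT it was at 0.136 FPKM in PT1, 0.112 FPKM in PT2, 1.24 FPKM in PT3 and 0.00692 FPKM in PT4. PT3 lay above AstroEGFR*2, so the groups overlapped, and the log2 difference was −3.73 ± 1.56 (SE). Leaving out AstroEGFR*3 brought it to −1.59.

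Lumican (Lum), a keratan sulfate carrier needed for ordered collagen in the cornea, was at 1.21 FPKM in AstroEGFR*1, 4.02 FPKM in AstroEGFR*2 and 50.7 FPKM in AstroEGFR*3, and at 1.56 FPKM in PT1, 0.0551 FPKM in PT2, 0.0621 FPKM in PT3 and 0.177 FPKM in PT4. PT1 stood above AstroEGFR*1, the batch it came from. The log2 difference was −2.62 ± 1.00 (SE), and −1.30 without AstroEGFR*3.

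Asporin (Aspn), which lacks the sulfated chains and inhibits TGF-β and BMP, was at 0.611 FPKM in AstroEGFR*1, 0.353 FPKM in AstroEGFR*2 and 46.3 FPKM in AstroEGFR*3, and at 0.0512 FPKM in PT1, 0 in PT2, 0.109 FPKM in PT3 and 0.00518 FPKM in PT4. Its groups did not overlap, although 2 of the 3 AstroEGFR* libraries were below 1 FPKM. The log2 difference was −2.17 ± 1.17 (SE).

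Podocan (Podn), first known from the kidney, was at 0.715 FPKM in AstroEGFR*1, 0.375 FPKM in AstroEGFR*2 and 9.62 FPKM in AstroEGFR*3, and at 0.333 FPKM in PT1, 1.03 FPKM in PT2, 0.313 FPKM in PT3 and 0.391 FPKM in PT4. PT2 exceeded 2 of the 3 AstroEGFR* libraries. With a log2 difference of −0.97 ± 0.71 (SE), Podn was the member that differed least. Without AstroEGFR*3 neither Aspn nor Podn reached a mean of 1 FPKM, and neither then had a value.

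Over the family, the sum was between 466 and 3876 FPKM in AstroEGFR* and came to 121 FPKM in PT1, 3.74 FPKM in PT2, 152 FPKM in PT3 and 108 FPKM in PT4. Each AstroEGFR* library held 24.0, 125, 25.5 and 26.8 times the sum of the PT1, PT2, PT3 and PT4 derived from it. Of the 12261 features whose FPKM over the 7 libraries averaged 1 or more, which include all 9 members, 7.81% had every PT below every AstroEGFR*. Among the members these were 6 of 9 (Fmod, Prelp, Omd, Ogn, Bgn and Aspn), a count that the choice of the members fixes in part. Of the 9, 6 (Fmod, Dcn, Lum, Omd, Aspn and Podn) averaged under 1 FPKM in PT and were among these features through AstroEGFR* alone. Without the sparse libraries AstroEGFR*3 and PT3 the count over the same 12261 features was 7 of 9, beside 14.9% of all features. It still included Aspn, which outside AstroEGFR*3 was below 1 FPKM in every AstroEGFR* and PT library. With fewer libraries to hold apart such a count rises for all features, so nothing is read from it. The median log2 difference was −4.29 over the members and 0.03 over all features. It was −3.66 without PT2, −5.17 without AstroEGFR*2 and within these values without any other library. In bulk RNA, fewer cells that express a gene and less RNA per cell cannot be told apart.

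Taken within batches, 8 of 9 members were lower in PT1 than in AstroEGFR*1, 8 in PT2, 9 in PT3 and 9 in PT4, with median log2 differences of −4.02, −3.39, −4.55 and −4.12. The exceptions were Lum in PT1 and Podn in PT2. Fmod, Prelp, Omd and Ogn had differences of −3.39 or lower in each PT. Dcn, Aspn and Podn had their widest differences in batch 3, at −7.24, −5.42 and −3.02, where AstroEGFR* expressed them most.

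**Figure D2:**
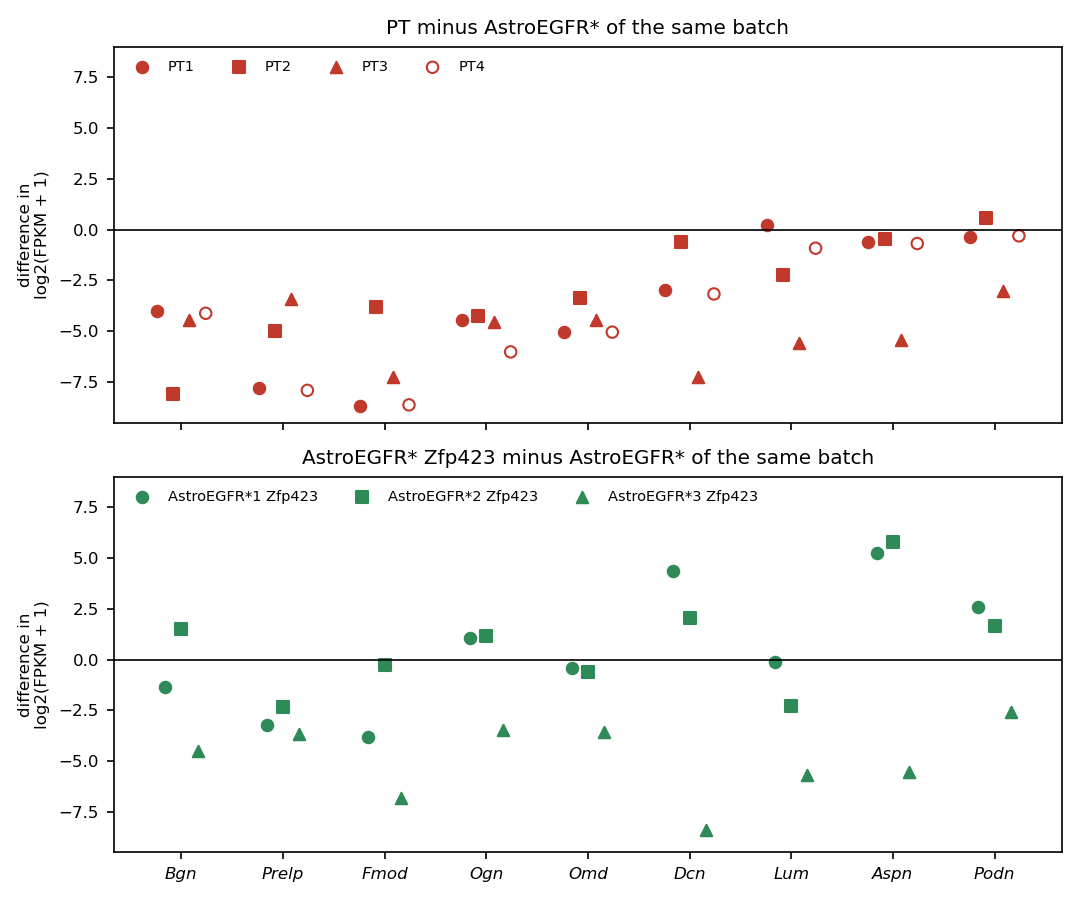
Difference in log2(FPKM + 1) of each PT (top) and each AstroEGFR* Zfp423 library (bottom) from the AstroEGFR* library of its own batch, for the 9 members. The line at 0 marks equal levels. PT lie below 0 except for Lum in PT1 and Podn in PT2, while the Zfp423 libraries of batches 1 and 2 lie above 0 for Dcn, Ogn, Aspn and Podn and that of batch 3 lies below 0 for all 9.

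The comparison of AstroEGFR* Zfp423 with AstroEGFR* asks which genes move when Zfp423 is forced in the tumorigenic astrocytes. It uses the same AstroEGFR* libraries as the comparison above, so the values are not independent of it. The batches are those of the labels, and the directions within batches and the blocked errors below depend on them. Deviations from the group mean over all features correlated at −0.108 between the Zfp423 library of batch 2 and its own AstroEGFR*, against 0.326 with AstroEGFR*3. For that of batch 3 the values were −0.296 and, with AstroEGFR*2, 0.232. Zfp423 itself was at 4.30, 3.25 and 3.48 FPKM in AstroEGFR* of batches 1 to 3 and at 15.7, 9.73 and 105 FPKM after the vector, higher in 3 of 3 batches and highest in the library labelled batch 3. Its log2 difference was 2.52 ± 0.74 (SE), with an adjusted p of 0.628 by limma with the batch as a block. In the 4 PT its FPKM was 0.837, 2.78, 0.641 and 1.77 in turn, a log2 difference of −0.98 ± 0.38 (SE) from AstroEGFR* with an adjusted p of 0.314 by limma.

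With Zfp423, the family did not move as one. Prelp, Fmod, Omd and Lum were lower in each of the 3 batches, Dcn, Ogn, Aspn and Podn were higher in batches 1 and 2 and lower in batch 3, and Bgn was higher in batch 2 only. The 4 members lower in all 3 batches stand beside 15.2% of all features, and nothing is read from that count, since the choice of the members used these values. In this comparison 0 of 12366 features passed limma with Benjamini-Hochberg adjustment in either direction (0.0%), with 7.38% of them at an unadjusted p under 0.05.

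Prelp had the most even difference. It was at 50.6 FPKM in AstroEGFR*1 Zfp423, 9.58 FPKM in AstroEGFR*2 Zfp423 and 9.32 FPKM in AstroEGFR*3 Zfp423, so that the highest of these lay just below the lowest AstroEGFR* library. Its log2 difference was −3.07, with an SE of 0.33 with the batch as a block and of 0.96 without it. Lum was at 1.04 FPKM, 0.0196 FPKM and 0 with Zfp423, and averaged 1 FPKM over the 6 libraries through AstroEGFR* alone. Its log2 difference was −2.70 ± 1.17 (SE, as for the members that follow with the block).

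Fmod was at 28.0 FPKM, 10.6 FPKM and 0.626 FPKM in the Zfp423 libraries of batches 1 to 3. It differed by −3.65 ± 1.32 (SE) on the log2 scale. The difference was small in batch 2, at −0.29, where Fmod was already lowest in AstroEGFR*. Omd, at 24.6 FPKM, 5.82 FPKM and 1.14 FPKM, differed by −1.53 ± 0.73 (SE). These differences leaned on batch 3, without which they were −2.06 for Fmod, −0.53 for Omd and −1.21 for Lum, against −2.78 for Prelp. With 1 batch left out the range was −5.33 to −2.06 for Fmod and −2.09 to −0.53 for Omd, and Lum was lower in each case.

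With the batches as labelled, Aspn, Dcn and Podn went opposite ways in different batches. Aspn was at 60.5 FPKM in AstroEGFR*1 Zfp423 and 73.2 FPKM in AstroEGFR*2 Zfp423, against less than 1 FPKM in the AstroEGFR* of either batch, but at 0.0181 FPKM in AstroEGFR*3 Zfp423, against 46.3 FPKM. Dcn went from 8.03 to 185 FPKM in batch 1, from 0.692 to 5.90 FPKM in batch 2 and from 338 FPKM to a listed 0 in batch 3. Podn took the same course, to 9.19 FPKM, 3.29 FPKM and 0.796 FPKM. The log2 differences over the 3 batches were therefore small beside their errors, at 1.83 ± 2.55 for Aspn, −0.67 ± 2.72 for Dcn and 0.55 ± 1.14 for Podn (SE). Without batch 3 they were 5.52, 3.19 and 2.11.

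Ogn, at 249.5 FPKM, 109 FPKM and 10.7 FPKM with Zfp423, and Bgn, at 721 FPKM, 947 FPKM and 131 FPKM, were the most abundant members in each Zfp423 library. The summed family went from 2897 to 1329 FPKM in batch 1, from 466 to 1164 FPKM in batch 2 and from 3876 to 154 FPKM in batch 3, where all 9 members were lower and the median log2 difference was −4.49. Dcn and Lum were listed at 0 in AstroEGFR*3 Zfp423. Bgn differed by −1.45 ± 1.26 and Ogn by −0.41 ± 1.08 (SE).

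Markers of other cell types did not follow the family throughout. In batch 1 with Zfp423 the family fell from 2897 to 1329 FPKM while the fibroblast markers given next rose. Pericyte markers summed to between 2.39 and 9.59 FPKM in AstroEGFR*, 2.47 and 9.21 in PT and 2.34 and 6.32 with Zfp423. For endothelium these ranges were 1.66 to 6.74, 0.426 to 10.4 and 4.10 to 14.4 FPKM. For neurons they were 28.4 to 57.3, 16.4 to 100 and 6.30 to 33.5 FPKM. The 18 markers of fibroblasts and meninges, cells that make many of these proteoglycans, summed to 586, 657 and 5502 FPKM in AstroEGFR* of batches 1 to 3, to between 113 and 871 FPKM in PT, and to 4615, 6875 and 409.6 FPKM with Zfp423. The collagen genes Col1a1, Col1a2 and Col3a1 gave 44.5%, 72.6% and 85.1% of the sum in AstroEGFR* of batches 1 to 3, from 0.647% to 42.0% of it in PT, and 92.4%, 89.8% and 54.3% with Zfp423. Of the 18 markers 4 were below 1 FPKM in every AstroEGFR* library. Among the meningeal ones Slc6a13 and Ranbp3l were below 1 FPKM in all 10 libraries, while in AstroEGFR* of batches 1 to 3 Foxc1 was at 23.5, 20.4 and 57.7 FPKM and Zic1 at 2.36, 8.75 and 32.0 FPKM. Of the 14 of these markers tested between PT and AstroEGFR*, 13 had lower values and 1, Pdgfrb, passed as lower, as did 0.922% of all features. At an unadjusted p under 0.05 there were 9 of the 14, beside 13.6% of all features. The correlation with the summed fibroblast markers over the 10 libraries was 0.907 for Aspn, 0.851 for Ogn, 0.803 for Podn, 0.802 for Dcn, 0.719 for Bgn, 0.716 for Omd, 0.628 for Fmod, 0.595 for Prelp and 0.402 for Lum. The 10 microglia markers summed to between 7.10 and 40.7 FPKM in AstroEGFR*, to at most 2.70 FPKM in PT, and to 1527, 949 and 0.156 FPKM in the Zfp423 libraries of batches 1 to 3. In AstroEGFR* Tmem119 gave 7.61, 4.89 and 38.0 FPKM of this sum, and the other markers summed to 11.5, 2.21 and 2.70 FPKM in batches 1 to 3. With Zfp423 they summed to 1483, 844 and 0.105 FPKM. The libraries with high microglia markers are those in which Dcn, Ogn, Aspn and Podn lay above their own AstroEGFR*. In both of them Prelp, Fmod, Omd and Lum lay below it, and Bgn lay above it in batch 2 only. The same libraries held the fibroblast sums of 4615 and 6875 FPKM. The 8 markers of the oligodendrocyte lineage summed to between 66.8 and 223 FPKM in AstroEGFR* and to 1357, 145, 131 and 1689 FPKM in PT, in turn. Of the 6 tested, 5 had higher values in PT, with a median log2 difference of 1.28, and none passed by limma. The 10 astrocyte markers summed to between 435 and 3390 FPKM in PT, lowest in PT3. With Zfp423 all 10 astrocyte markers had a negative log2 difference as a mean over the batches, with a median of −1.77. None passed by limma, with 4 at an unadjusted p under 0.05. The batches differed, since in batch 3 Fabp7 went from 393 to 1906 FPKM and Aldh1l1 from 127 to 356 FPKM. In the same batch Gfap went from 725 to 393 FPKM. What part any of these markers has in the values of the family was not tested.

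**Figure D3:**
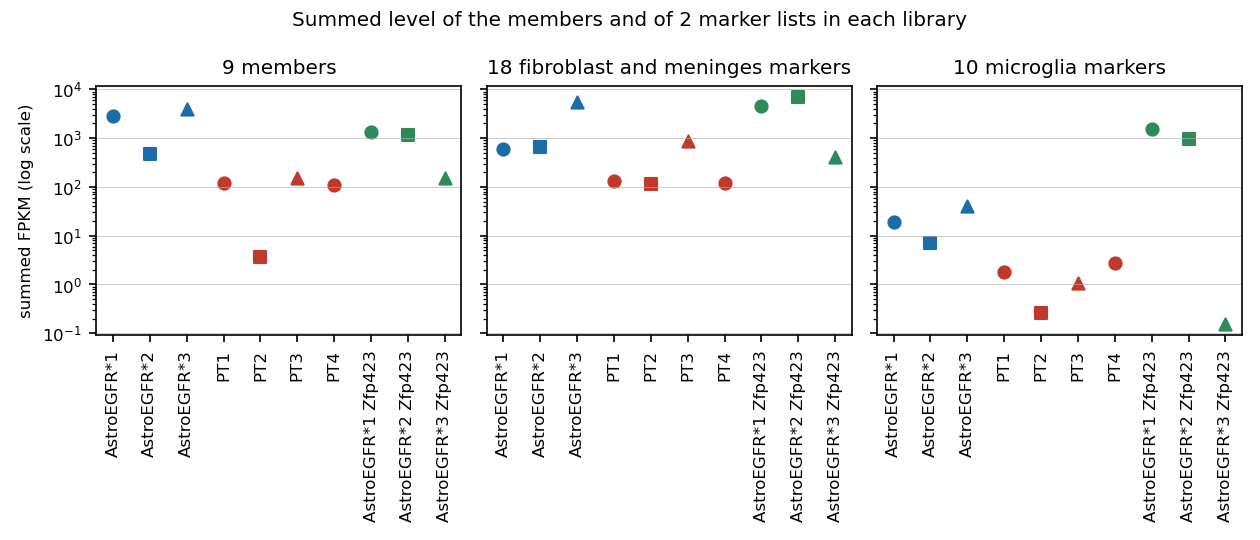
Summed FPKM of the 9 members, of 18 markers of fibroblasts and meninges and of 10 microglia markers in each library, on a log scale. Colours are groups and shapes astrocyte batches. AstroEGFR*1 holds 2897 FPKM of the family beside 586 FPKM of fibroblast markers, and AstroEGFR*2 466 FPKM beside 657 FPKM.

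Dcn, Podn and Aspn correlated with each other at 0.835 to 0.925 over the 10 libraries, and Prelp with Aspn at only 0.377 and with Podn at 0.403. Dcn and Lum, which are direct neighbours on chromosome 10, correlated at 0.654, less than Fmod with Prelp at 0.935 or Omd with Ogn at 0.950. Aspn, next to Omd on chromosome 13, correlated with it at 0.632.

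**Figure D4:**
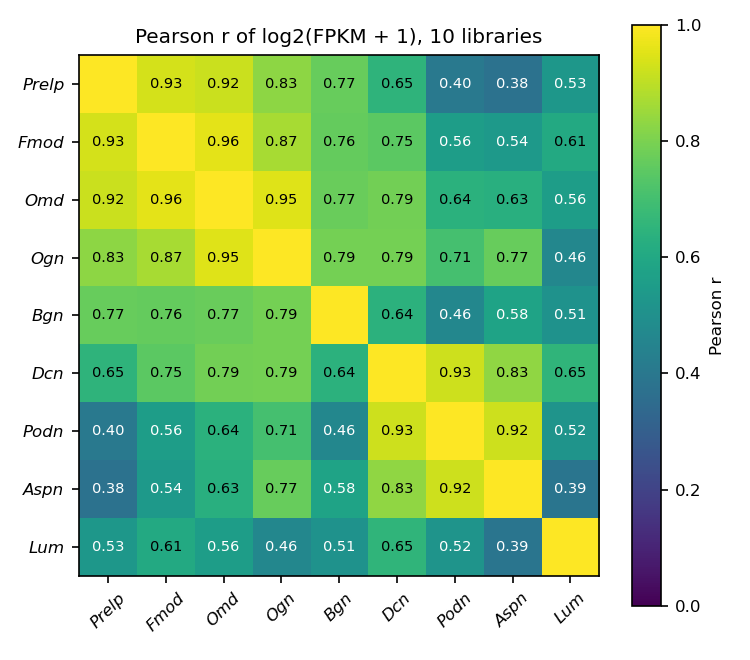
Pearson correlation of log2(FPKM + 1) between members over the 10 libraries, which are not independent since they share batches and groups. Prelp, Fmod, Omd and Ogn form one block with values from 0.831 to 0.959, and Dcn, Podn and Aspn another with values from 0.835 to 0.925.

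Outside the family, the 10 features whose log2(FPKM + 1) was most like the mean profile of the members, among all others averaging 1 FPKM or more, were Slit3 (r = 0.983), Slc44a2, Serpinb9, Fst, P4ha3, Wif1, St5, Bicc1, Adamtsl1 and Tnfrsf11b (r = 0.960), over 10 libraries. The profile of the members is higher in AstroEGFR* than in PT, so features chosen by likeness to it differ in the same direction through that choice. Their levels are given as descriptions. Slit3, a guidance cue, was between 8.87 and 35.0 FPKM in AstroEGFR* and between 0.0256 and 1.26 FPKM in PT. Fst, which encodes follistatin, a binder of activins, was between 3.39 and 21.9 FPKM and between 0.194 and 1.20 FPKM in the same groups. P4ha3 encodes a subunit of the prolyl hydroxylase that modifies collagen, and was between 1.70 and 33.3 FPKM in AstroEGFR* and at most 0.167 FPKM in PT.

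Genes of the same pathway were compared between PT and AstroEGFR* in the fit over all 12261 features, of which 0.922% passed as lower and 0.318% as higher in PT by limma with an adjusted p under 0.05. Of 13 collagens that the family binds, 12 had lower values in PT. The list had a median log2 difference of −2.80. At an unadjusted p under 0.05 there were 7 genes, beside 13.6% of all features, and 1 gene passed the adjusted threshold. This was Col12a1, a collagen of the fibril surface, between 42.1 and 69.2 FPKM in AstroEGFR* and between 2.23 and 7.40 FPKM in PT, with a log2 difference of −3.49 ± 0.38 (SE) and an adjusted p of 0.0109 by limma. With the astrocyte batch as a replicate block 4 collagens passed (Col1a1, Col1a2, Col6a3 and Col12a1), and with all 10 libraries in 1 fit none did. Col12a1 also missed the threshold without AstroEGFR*1, and without both AstroEGFR*3 and PT3, where Col1a2 passed in its place.

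Of 16 ligands and receptors that the family binds, 10 had lower and 6 higher values. At an unadjusted p under 0.05 there were 7, beside 13.6% of all features, and 1 passed the adjusted threshold. This was Bmp4, a ligand of the BMP pathway, between 3.14 and 10.1 FPKM in AstroEGFR* and between 0.0606 and 0.364 FPKM in PT, with a log2 difference of −2.53 ± 0.40 (SE) and an adjusted p of 0.0324 by limma. It no longer passed when any 1 library other than AstroEGFR*2 was left out, when PT1 and PT4 were averaged or with all 10 libraries in 1 fit. In its place Met passed without PT1, and Lrp1, an endocytic receptor, passed as higher in PT with all 10 libraries, where its log2 difference was 1.55. With the replicate block Tgfb3 and Met passed as well, which made 3.

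The enzymes that build the sulfated chains were divided in direction. Of 23 genes of chondroitin and dermatan sulfate synthesis 10 were lower and 13 higher, with a median log2 difference of 0.08, and none passed by limma, with 6 at an unadjusted p under 0.05, a level that 13.6% of all features reached. The widest difference was that of Chst7, a sulfotransferase, at 1.99 ± 0.38 (SE) with an adjusted p of 0.0616 by limma. With the replicate block 2 passed, Chst7 and Chst12. Of 6 genes of keratan sulfate synthesis none passed, with 3 at an unadjusted p under 0.05 and a median of −0.40, and 1, Fut8, did with the block. The widest difference was that of B3gnt2, an enzyme that extends such chains, at −1.51 ± 0.38 (SE) with an adjusted p of 0.129 by limma. Of 6 proteases that cut these proteins 5 were lower and none passed, with 3 at an unadjusted p under 0.05. The widest difference was that of Mmp2, a gelatinase, at −3.46 ± 1.05 (SE) and an adjusted p of 0.193 by limma. With Zfp423, no gene of any of these lists passed by limma. At an unadjusted p under 0.05 there was 1 gene of chondroitin and dermatan sulfate synthesis (Chst11), 1 of keratan sulfate synthesis (Chst1) and 2 ligands or receptors (Tlr4 and Lrp1).

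Other genes of the family were mostly near 0. Of 9, only Epyc, Chadl and Tsku reached a mean of 1 FPKM over AstroEGFR* and PT, and none passed by limma, with 0 at an unadjusted p under 0.05. Epyc, a small proteoglycan of cartilage that lies next to Dcn, Lum and Kera, was at 97.1 FPKM in AstroEGFR*3 and 2.02 FPKM in AstroEGFR*1, was listed at 0 in AstroEGFR*2 and was at most 0.0766 FPKM in PT, a log2 difference of −2.71 ± 1.38 (SE) with an adjusted p of 0.449 by limma. It thus had its highest value in the same library as Dcn and Lum.

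**Figure D5:**
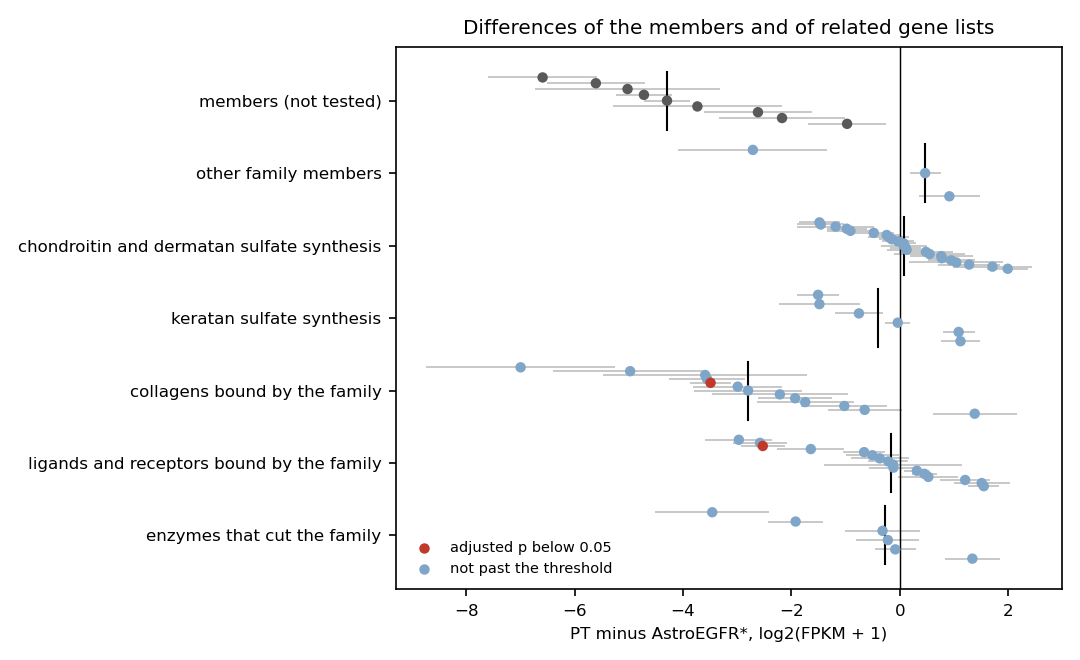
Difference between PT and AstroEGFR* in log2(FPKM + 1) for each member (grey, not tested) and each tested gene of 6 related lists, with whiskers of 1 SE (n = 4 and 3) and a bar at the median of each list. Red marks an adjusted p below 0.05 by limma, reached by Col12a1 and Bmp4. The medians are −4.29 for the members, −2.80 for the collagens and 0.08 for chondroitin and dermatan sulfate synthesis.

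The genes around the members were examined to see whether the differences extend along the chromosome. Of 30 protein-coding genes that are the 3 nearest on either side of a member, without genes of the family, 17 were tested. Their median log2 difference was −0.07, 9 of them had lower values in PT and 1 passed. This was Atp2b4, a calcium pump of the plasma membrane, which lies beyond Optc on the Prelp side of Prelp and Fmod and is named after its values were seen. It was at 90.7, 24.0 and 21.5 FPKM in AstroEGFR* of batches 1 to 3 and in PT, in turn, at 3.36, 0.271, 0.425 and 2.31 FPKM, a log2 difference of −4.04 with an adjusted p of 0.0324 by limma. It passed with the replicate block but not when any 1 library other than PT1 was left out, nor with a pseudocount of 0.1. Btg2, on the Fmod side, was between 8.08 and 10.3 FPKM in AstroEGFR* and between 8.26 and 12.9 FPKM in PT. Around Aspn, Omd and Ogn, and around Dcn and Lum, none of the tested neighbours passed.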

How the data were processed

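Per the labels, the authors aligned reads to mm9 with TopHat 1.3 and obtained FPKM with Cuffnorm, and the deposited matrix holds 1 FPKM column per library, all of which were used. The labels name a TruSeq RNA kit and a lentiviral Zfp423 vector, where the paper has ribosomal RNA removed and a retroviral vector. The labels give day P5 for the cortex, the paper a range of pup ages that starts there. Fragment counts were not used here, so the precision that depth gives to each value is unknown.

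Values were compared as log2(FPKM + 1) for the features that averaged 1 FPKM or more, by limma 3.58.1 in R 4.3.3 with a trend and Benjamini-Hochberg adjustment at 0.05. For genes of low level such a log2 difference is smaller than the true ratio. The Zfp423 comparison had the astrocyte batch as a block and that of PT had none. The batches come from the sample titles and, for PT, from the study's account of which astrocytes gave which tumour. Over 12261 features, the deviation of each PT from its group mean correlated with that of its own AstroEGFR* at 0.347 to 0.500. For the Zfp423 libraries this was 0.251, −0.108 and −0.296 in batches 1 to 3, and the highest value with another batch was 0.013, 0.326 and 0.232. The pairing was kept as the labels give it, with the highest Zfp423 level in batch 3, the batch that the study describes as the one with the strongest overexpression, and the differences within batches and the blocked errors and p-values depend on it. Nothing says that a library was repeated, so p-values measure the spread between cultures, which are not all independent. PT1 and PT4 share batch 1, and the main PT fit took neither this nor the pairing of PT with AstroEGFR* into account. The highest correlation between any pair of libraries was 0.981.

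The members and the lists were chosen with earlier results of these data known. Named were the members, Zfp423, list genes past the threshold (at most 5) or else the widest difference in a list, and the 10 features most like the members. Other genes given by name or value, such as Haus7, Btg2, Foxc1, Zic1, Tmem119, Fabp7 and genes that passed under 1 alternative alone, were chosen after their values were seen. Since the members were chosen by these values, no test of a member between groups is given. Dixon's ratio, used below, only marks single libraries within PT. Alternatives were a pseudocount of 0.1, median-ratio scaling, no filter, no trend, the block or none, all 10 libraries in 1 fit, PT1 and PT4 averaged, and each library or batch left out. Leaving out both AstroEGFR*3 and PT3 was added after seeing the data. Scripts were tested on simulated data. Python 3.11.15, pandas 2.3.3, scipy 1.17.1 and matplotlib 3.10.9 were used.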

Additional observations from a re-analysis of the deposited data

Results flagged for a closer look

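In 5 of the 9 members, 1 PT library stood apart from the other 3, by Dixon's ratio of its gap to the group's range on the log2(FPKM + 1) scale, past its 95% critical value for 4 libraries. By chance about 1 group in 20 would be marked, and 6.98% of the 12261 features were. The choice of the members used these same values, so nothing is read from the count of 5, and the ratio only marks libraries for a closer look. Bgn was low in PT2, at 0.245 FPKM, with a ratio of 0.949. Prelp was high in PT3, at 11.1 FPKM, with a ratio of 0.881, and Dcn was high in PT3, at 1.24 FPKM, with a ratio of 0.850. Lum was high in PT1, at 1.56 FPKM, with a ratio of 0.876, and Podn was high in PT2, at 1.03 FPKM, with a ratio of 0.868. Groups of 3 libraries were not examined in this way.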

How the results depend on the processing

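All 9 members, or the 7 past the mean of 1 FPKM where AstroEGFR*3 was left out, kept a lower level in PT under every alternative run. Their median log2 difference, −4.29, was −5.48 with a pseudocount of 0.1 and −5.17 to −3.66 with 1 library left out. With that pseudocount Fmod (−9.41), Lum (−4.31), Omd (−6.99) and Aspn (−4.19) moved by more than the spread between libraries, which follows from the smaller constant for values near 0. The features lower and higher in PT, 113 and 39, were 329 and 146 with the replicate block, 45 and 17 with all 10 libraries in 1 fit, 39 and 20 with PT1 and PT4 averaged, 6 and 2 without both AstroEGFR*3 and PT3, and from 6 to 99 and from 1 to 37 with 1 library left out, lowest without AstroEGFR*1. The 1 collagen that passed became 2 with a pseudocount of 0.1, 4 with the replicate block, 0 with all 10 libraries and 0 to 2 with 1 library left out. The 1 ligand or receptor (Bmp4) became 3 with the block, was Lrp1 with all 10 libraries and Met without PT1, and became 0 with PT1 and PT4 averaged, 0 without both AstroEGFR*3 and PT3 and 0 to 2 with 1 library left out. Chondroitin and dermatan sulfate synthesis had 2 and keratan sulfate synthesis 1 with the block, against 0. The 1 neighbouring gene became 0 with a pseudocount of 0.1, all 10 libraries, no filter, PT1 and PT4 averaged or both AstroEGFR*3 and PT3 left out, and 0 to 1 with 1 library left out. The cause of these moves was not tested.

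With Zfp423, over all features 0 passed, 2 with no replicate block, and 0 to 51 with 1 batch left out, the 51 without batch 2. Directions turned when a batch was left out: the log2 difference ranged from −0.46 to 2.11 for Podn, −0.14 to 5.52 for Aspn, −3.19 to 3.19 for Dcn, −2.92 to 0.067 for Bgn and −1.20 to 1.12 for Ogn. The SE of Prelp, 0.33, was 0.96 with no replicate block. Podn turned negative without batch 1 and Aspn without batch 2, and Dcn, Bgn and Ogn turned positive without batch 3. Depth limits the values near 0 most, in AstroEGFR*3 and PT3.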
